A study of Mus musculus with 14 samples.

Results

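ER-associated degradation, or ERAD, removes proteins that fail to fold in the endoplasmic reticulum (ER), and 10 genes of it were followed here across mouse embryonic fibroblasts with and without the sirtuin SirT7. They are the Derlin genes Derl1, Derl2 and Derl3, then Herpud1, Sel1l and Syvn1, and the recognition genes Edem1, Edem2, Edem3 and Os9. They were chosen by symbol, with earlier results of these data known, from a table of 24015 genes. All 10 were found there and passed the filter on low counts in every comparison. In ERAD, lectins and mannosidases in the ER lumen pick out a misfolded glycoprotein and hand it to a membrane complex. That complex moves the protein back across the membrane, a ubiquitin ligase in it tags the protein, and an ATPase pulls it into the cytosol for the proteasome. Many of these genes are known targets of the unfolded protein response, the signalling from the ER that its sensors start when folding falls behind, and in many cells a lack of glucose is a known trigger of it because glycosylation needs sugar.

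The study measured gene expression by RNA sequencing of total RNA in 14 libraries of fibroblasts taken from embryos of day 14.5, of the mouse strain 129s2, at passages 3 to 4. Wild-type and SirT7-/- cells were kept for 18 h in normal medium, which the labels call no treatment (NT), or in medium without glucose (GS). The groups are WT-NT (n = 4), WT-GS (n = 3), KO-NT (n = 4) and KO-GS (n = 3), where KO stands for SirT7-/- cells, and libraries are named by group and number. SirT7 is a nuclear enzyme that uses NAD, and the study asked about its part in the response to glucose starvation. No label says whether the cells of a group came from separate embryos or cultures, so p-values measure only the spread between these samples, which may be technical.

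The stretches of DNA in front of 4 of these genes are printed first, since they belong to the members with the highest fitted rises on starvation, and 3 of them hold a known binding motif of the unfolded protein response. They are the 250 bases before the RefSeq start of each gene, 5′ to 3′ on the gene's strand, in the build GRCm38.p6. RefSeq's table held such a stretch for 9 of the 10 members. 4 motifs were searched on both strands. The ER stress response element ERSE was read as CCAAT, then 9 bases of any kind, then CCACG, and ERSE-II as ATTGG, 1 base of any kind, then CCACG. The unfolded protein response element UPRE was read as TGACGTGG and the amino acid response element AARE as TTGCATCA. Capitals mark a match, and no 2 matches in these members overlap.

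Derl3, chr10:75893148-75893397, plus strand: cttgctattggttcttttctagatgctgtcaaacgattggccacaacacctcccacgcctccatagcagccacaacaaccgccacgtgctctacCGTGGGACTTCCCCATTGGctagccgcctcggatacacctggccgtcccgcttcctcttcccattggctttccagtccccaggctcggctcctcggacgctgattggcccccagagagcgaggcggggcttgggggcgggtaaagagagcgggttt
Herpud1, chr8:94386179-94386428, plus strand: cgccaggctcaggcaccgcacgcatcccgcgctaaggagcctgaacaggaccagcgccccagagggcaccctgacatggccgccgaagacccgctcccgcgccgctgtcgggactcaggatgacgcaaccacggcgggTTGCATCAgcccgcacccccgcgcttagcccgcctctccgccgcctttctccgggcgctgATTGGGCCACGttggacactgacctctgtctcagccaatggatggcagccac
Syvn1, chr19:6046326-6046575, plus strand: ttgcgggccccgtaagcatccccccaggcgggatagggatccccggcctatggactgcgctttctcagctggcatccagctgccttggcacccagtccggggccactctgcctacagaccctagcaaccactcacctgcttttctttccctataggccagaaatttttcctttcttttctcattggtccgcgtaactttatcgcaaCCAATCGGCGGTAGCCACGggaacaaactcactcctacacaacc
Sel1l, chr12:91849158-91849407, minus strand: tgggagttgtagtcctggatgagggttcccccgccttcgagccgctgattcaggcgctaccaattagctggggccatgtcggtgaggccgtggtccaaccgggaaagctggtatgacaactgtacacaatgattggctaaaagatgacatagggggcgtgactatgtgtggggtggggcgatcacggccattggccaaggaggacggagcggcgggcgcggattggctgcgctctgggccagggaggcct

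In the Derl3 stretch an ERSE lay on the opposite strand, from 156 to 138 bases before the start. The Syvn1 stretch held an ERSE on the gene's strand, from 44 to 26 bases before the start. Herpud1 held an ERSE-II from 52 to 42 bases before the start, and an AARE from 112 to 105 bases before it. The Herpud1 stretch also ended on the letters of an ERSE without its last base. That base lay past the window and was not searched, so no match was counted there. Such matches were uncommon among the 32851 stretches of the same length in the table: 0.113% held an ERSE, 0.0304% an ERSE-II, 0.563% a UPRE and 0.791% an AARE. No motif was matched in Sel1l or in the other 5 members with a stretch, which says only that these letters are not in that window. A match of letters is a description and shows no binding.

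**Figure D1:**
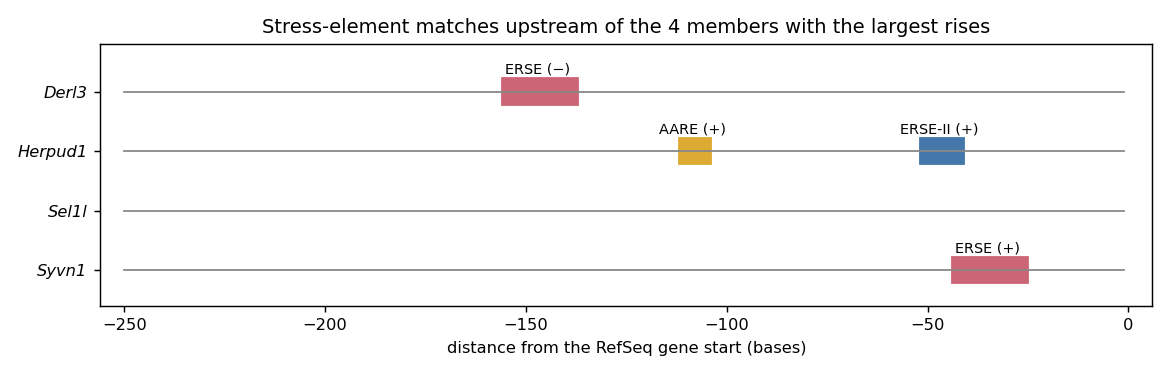
Positions of the ERSE, ERSE-II, UPRE and AARE matches, as bases before the RefSeq start (horizontal axis), in the 250 bases printed for Derl3, Herpud1, Sel1l and Syvn1 (1 line per gene, strand of the match in brackets). Derl3, Herpud1 and Syvn1 hold a match, and the line of Sel1l is empty.

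Library totals ran from 59788270 (WT-GS 2) to 91607861 (KO-NT 4) estimated counts, and levels are given as counts scaled to 1000000 of that total (CPM). A count of 3 corresponds to 0.0327 to 0.0502 CPM, which covers counting error only. Sirt7 stood at 16.9 to 23.1 CPM in the wild-type libraries and at 0.301 to 1.41 CPM in those labelled SirT7-/-, so Sirt7 matched the genotype labels in all 14. For the medium this did not hold in every library. Placed on 5120 starvation genes outside ERAD, with 0 at the WT-NT mean and 1 at the WT-GS mean, 2 libraries stood with the medium opposite to their label: KO-NT 4 at 0.857 and KO-GS 3 at 0.18. The other SirT7-/- libraries of normal medium reached -0.0205 to 0.0493, and the remaining starved ones 0.881 (KO-GS 1) and 0.906 (KO-GS 2). The main edgeR calls that use these 2 libraries are therefore given with and without them. Some other counts, such as those of DESeq2, are given only as labelled. Because these 2 libraries were left out for their place on starvation genes, the starvation calls made without them are partly set by that choice. The differences between the genotypes without them are partly set by it too, since both lay far from the wild-type mean of their labelled medium.

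In wild-type cells, 8 of the 10 members rose on glucose starvation, none fell, and Edem2 and Os9 did not pass the test (edgeR's quasi-likelihood test, Benjamini-Hochberg adjusted p under 0.05 over all 15263 genes tested). The percentage called in either direction among all genes was 33.8%, called higher it was 16.8% and called lower 17%. The median log2 change was 1.18 over the 10 members and -0.03 over all genes. In each of the 10 members, all 3 WT-GS libraries lay above all 4 WT-NT libraries, a pattern met in 20.2% of all genes. The largest fitted changes belonged to the membrane complex and Edem1, and the smallest to the other genes of recognition. Derl3 had the highest fitted change of all genes tested, and Herpud1, Sel1l, Syvn1 and Edem1 ranked 136, 174, 393 and 560.

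**Figure D2:**
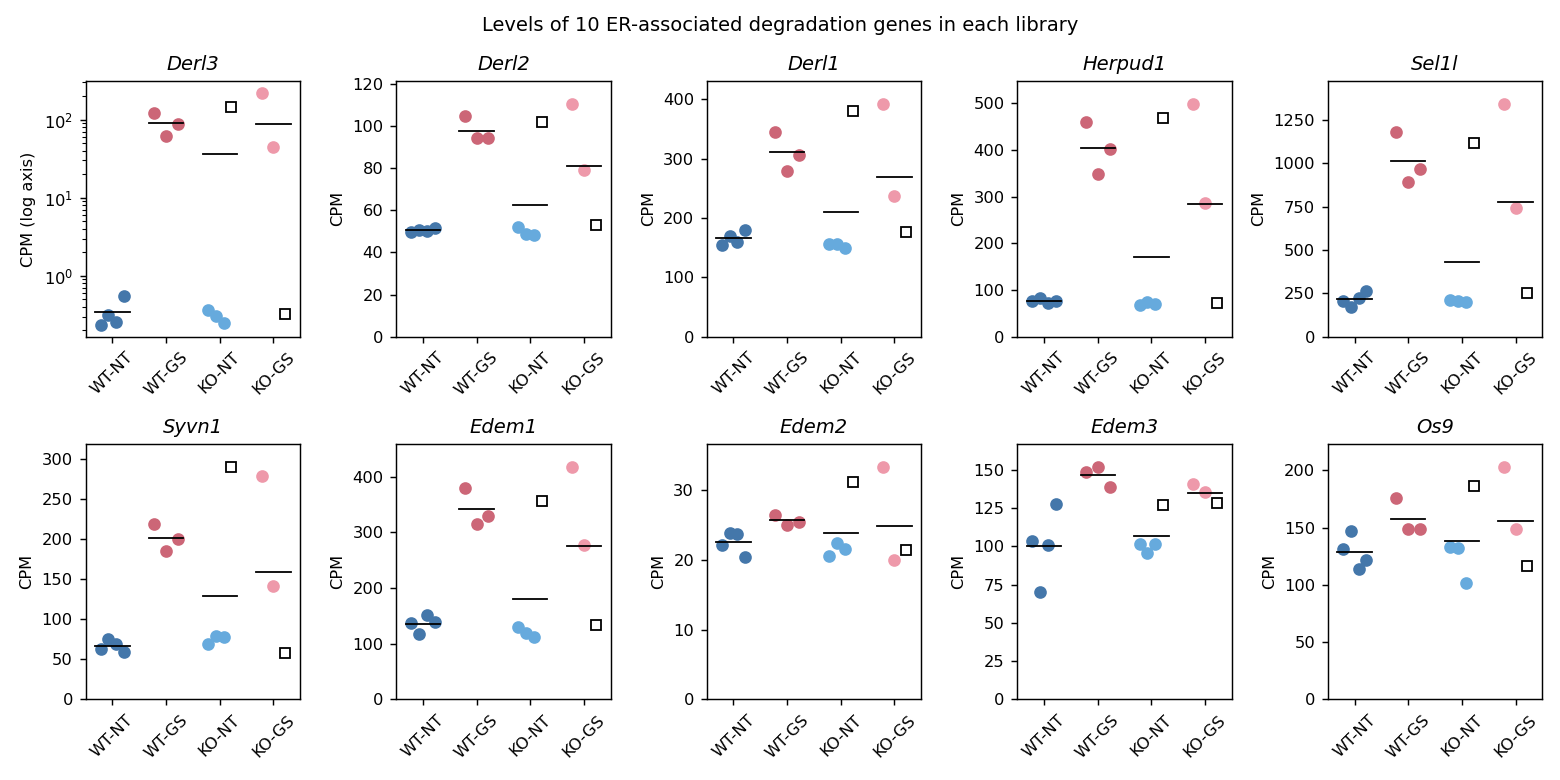
Level of each of the 10 members in CPM (vertical axes, logarithmic for Derl3 and linear from 0 for the rest) in every library of the 4 groups (horizontal axis), 1 point per library and a line at the group mean. Open squares are KO-NT 4 and KO-GS 3. Herpud1 stood at 72.9 to 83.9 CPM in WT-NT and 347 to 460.3 CPM in WT-GS, with KO-NT 4 at 467 CPM and KO-GS 3 at 72.5 CPM.

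Derlins are membrane proteins related to rhomboid proteases that help form the path by which substrates leave the ER. Derl3 was barely detected in normal medium, at 0.232, 0.314, 0.257 and 0.556 CPM in WT-NT 1 to 4 (17 to 50 counts). In WT-GS 1, 2 and 3 it stood at 123.6, 62.1 and 88.8 CPM. The groups were therefore far apart, and WT-GS 2, the shallowest library, was the lowest of the starved ones. Group means were 0.34 ± 0.148 CPM (SD, n = 4) and 91.5 ± 30.9 CPM (SD, n = 3), and the log2 change was 8.09 (SE 0.375, edgeR adjusted p = 6.59e-05).

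Derl1 and Derl2, the widely expressed Derlins, rose by less. Derl1 ran from 154 to 180.0 CPM in WT-NT and from 280.2 to 344 CPM in WT-GS, a log2 change of 0.95 (SE 0.0963, edgeR adjusted p = 0.00058). Derl2 was the least variable member in normal medium, at 49.5 to 51.6 CPM, and reached 94.1 to 104 CPM in WT-GS, a log2 change of 0.99 (SE 0.0695, edgeR adjusted p = 0.00016). The fitted changes of these 2 genes lay within the interval of each other, while the whole 95% interval of Derl3, 7.22 to 8.96, lay above both. Exons of Derl2 share 231 bases, 2.87% of its exonic length, with Mis12 on the opposite strand in GENCODE M21, and the library kit does not mark strand, so reads there cannot be told apart.

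Herpud1 is a membrane protein with a ubiquitin-like domain that binds the ligase complex and is itself a well-known marker of ER stress. It stood at 75.6, 83.9, 72.9 and 76.1 CPM in WT-NT 1 to 4. In WT-GS 1, 2 and 3 it reached 460.3, 347 and 401 CPM. No starved library came near the normal ones, and the spread within WT-NT was small. The log2 change was 2.43 (SE 0.113, edgeR adjusted p = 6.59e-05), from a mean of 77.1 ± 4.74 CPM (SD, n = 4) to 403 ± 56.5 CPM (SD, n = 3).

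Syvn1 encodes Hrd1, the ubiquitin ligase at the centre of the complex, and Sel1l its partner, which steadies the ligase and links it to the lectins. Sel1l stood at 208, 174, 223 and 263 CPM in WT-NT 1 to 4, and at 1179, 891 and 966 CPM in WT-GS 1, 2 and 3. Its log2 change was 2.27 (SE 0.159, edgeR adjusted p = 0.000166). Syvn1 stood at 63.1, 75.4, 69.4 and 59.3 CPM in WT-NT and at 219.7, 185 and 201 CPM in WT-GS. That is a log2 change of 1.64 (SE 0.109, edgeR adjusted p = 0.000145). Both genes were clear of overlap, and their 95% intervals, 1.90 to 2.64 for Sel1l and 1.38 to 1.89 for Syvn1, were separated narrowly. Exons of Syvn1 share 91 bases, 1.87% of its exonic length, with Mrpl49 on the opposite strand, where the same limit on strand holds.

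The Edem proteins trim mannose from misfolded glycoproteins or help deliver them, and Os9 is a lectin that reads the trimmed glycan and docks on Sel1l. Edem1 stood at 138, 118, 151 and 139 CPM in WT-NT 1 to 4 and at 381, 316 and 330.0 CPM in WT-GS 1, 2 and 3. Its log2 change was 1.37 (SE 0.109, edgeR adjusted p = 0.000277). Its 95% interval, 1.12 to 1.62, lay above those of Edem2 and Edem3, whose levels follow.

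Edem3 stood at 103, 70.0, 101 and 127 CPM in WT-NT and at 149, 152 and 138 CPM in WT-GS. WT-NT 4 came close to the starved libraries, and the rise of 0.59 on the log2 scale passed the test narrowly (SE 0.175, edgeR adjusted p = 0.0363). Its adjusted p was 0.051 with scaling by library size alone, and 0.0643 to 0.104 without WT-NT 1, WT-NT 3 or any 1 of the WT-GS libraries. Os9 ran from 114 to 147 CPM in WT-NT and from 149 to 176 CPM in WT-GS. Its log2 change of 0.34 (SE 0.112) had an adjusted p of 0.0501 with edgeR, 0.019 when WT-NT 2 was left out, and 0.0229 with DESeq2. Edem2 moved least, from 20.4 to 23.8 CPM in WT-NT to 24.99 to 26.4 CPM in WT-GS, a log2 change of 0.23 (SE 0.0932, edgeR adjusted p = 0.0942).

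**Figure D3:**
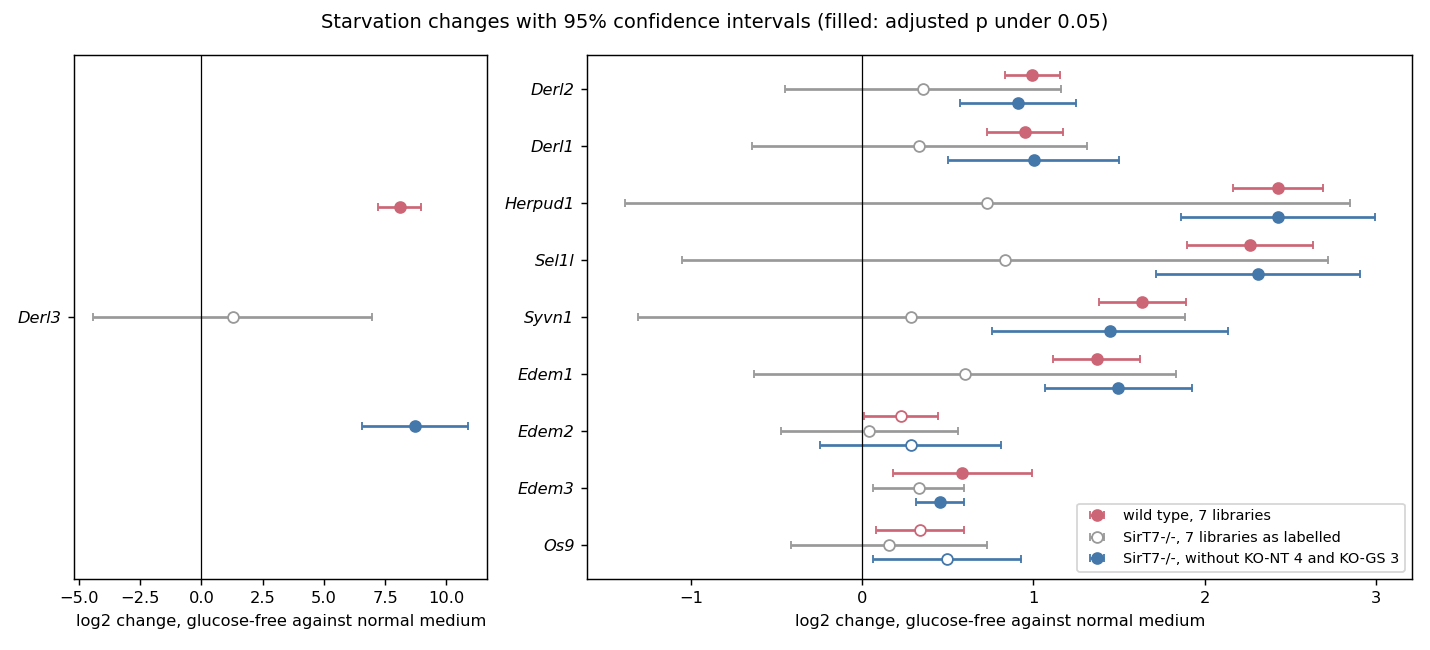
Log2 change on starvation (horizontal axes) of each member (vertical axes) in wild-type cells and in SirT7-/- cells with all libraries and without KO-NT 4 and KO-GS 3 (colours), with bars for the 95% interval and filled points where the edgeR adjusted p was under 0.05. Derl3 stands at 8.09 in wild-type cells, 1.27 in SirT7-/- cells as labelled and 8.72 without the 2 libraries.

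The cells were also checked for their type. All 10 fibroblast markers were detected in every library, and their summed level was 43718 to 50989 CPM in WT-NT and 24915 to 26549 CPM in WT-GS. The 9 macrophage markers were present in every library too, at a sum of 255 to 1603 CPM in WT-NT and 12.9 to 307 CPM in WT-GS. The fibroblast sum was lower in all 3 starved libraries, and the collagen genes Col1a1, Col1a2 and Col3a1 made up most of that: they summed to 25285 to 32383 CPM in WT-NT and 8059 to 9076 CPM in WT-GS. The other 7 markers summed to 15647 to 19792 CPM and 16855 to 17712 CPM, and in 4 of the 10 (Dcn, Fn1, Vim and S100a4) the groups overlapped. The macrophage sums overlapped as well, but Csf1r, Cx3cr1, Cd14, Cd68 and Itgam were each lower in every WT-GS library than in any WT-NT library. Csf1r, for example, did not exceed 25.4 CPM when starved and did not go under 32.8 CPM in normal medium. For Ptprc, Emr1, Mrc1 and Lyz2 the groups overlapped. The part of the fibroblast or macrophage markers in the rise of the ERAD genes was not tested. Derl3 is known for its level in secretory tissues, but the 7 markers of plasma and pancreatic cells summed to at most 0.518 CPM in any library, with Pou2af1 at 0 in 13 of 14 libraries. Epithelial markers summed to 4.34 to 12.6 CPM, and muscle markers to 81.4 to 248 CPM. Most of the muscle sum was Des and Acta1, present in all 14 libraries at up to 97.2 and 195 CPM. Acta1 ran from 21.2 to 49.4 CPM in WT-NT and from 49.7 to 195 CPM in WT-GS. Ckm was at 0 in all 14 libraries and Myod1 in 11. In bulk RNA, fewer cells of a type and less RNA per cell cannot be told apart.

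In SirT7-/- cells as labelled, none of the 10 members passed the test for starvation, and none of all 15186 genes tested did, so percent called was 0%. At an unadjusted p under 0.05 edgeR had 2253 genes, 1 of them a member (Edem3), and DESeq2 called 626 genes and 0 members. All 10 members had positive log2 changes, from 0.04 for Edem2 to 1.27 for Derl3 (SE 2.41). The KO-GS libraries lay above the KO-NT libraries without overlap in 1 member, Edem3, against 5.97% of all genes. The lowest adjusted p among the members was 0.316, for Edem3.

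The values by library show where the overlap lay. Derl3 stood at 0.365, 0.309, 0.247 and 145 CPM in KO-NT 1 to 4, and at 222, 44.8 and 0.32 CPM in KO-GS 1, 2 and 3. Herpud1 stood at 68.9, 74.0, 71.0 and 467 CPM in KO-NT, and at 497, 285 and 72.5 CPM in KO-GS. In the library labelled KO-NT 4 both genes stood slightly above the highest WT-GS library, whereas KO-GS 3 lay within the range of WT-NT for Derl3 and just under it for Herpud1. Sel1l repeated this at 212, 205 and 201 CPM in KO-NT 1 to 3, 1116 CPM in KO-NT 4, then 1341 and 745 CPM in KO-GS 1 and 2, and 255 CPM in KO-GS 3.

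Among the other members, Syvn1, Edem1, Derl1 and Derl2 were split in the same way, and Os9, Edem2 and Edem3 less clearly. Syvn1 stood at 69.4, 79.9, 77.9 and 291 CPM in KO-NT 1 to 4 and at 279, 142 and 58.3 CPM in KO-GS 1, 2 and 3. Edem1 stood at 130.02, 120.1, 113 and 357 CPM in KO-NT and at 418, 277 and 134 CPM in KO-GS. Derl1 and Derl2 followed: in KO-NT 1 to 3 they ran from 149 to 157 CPM and from 48.0 to 52.1 CPM, and in KO-NT 4 they reached 380.5 and 102 CPM. Os9 was the least orderly, at 133, 132, 102 and 186 CPM in KO-NT and 203, 149 and 116 CPM in KO-GS. Edem2 stood at 19.9 CPM in KO-GS 2, below every library of KO-NT, and at 33.2 CPM in KO-GS 1. Edem3 was not split, at 102, 95.8, 101 and 127 CPM in KO-NT 1 to 4 and at 141, 136 and 129 CPM in KO-GS 1, 2 and 3.

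The summed fibroblast markers split the same way, with 43957 to 51024 CPM over KO-NT 1 to 3 but 28465 CPM in KO-NT 4, then 26529 and 26757 CPM in KO-GS 1 and 2 and 43436 CPM in KO-GS 3. Of the 10 markers, 8 were lower in KO-NT 4 than in KO-NT 1 to 3, and Fn1 and Dcn were higher. Without the 3 collagen genes the sum was 17543 CPM in KO-NT 4, within the 16553 to 19045 CPM of KO-NT 1 to 3. Most of that sum was Fn1, at 12857 CPM in KO-NT 4. Pdgfra, Pdgfrb and Thy1 stood at 64.8, 576 and 628 CPM there, below KO-NT 1 to 3. Macrophage markers summed to 335 to 614 CPM in KO-NT and to 103 to 915 CPM in KO-GS. Their part in these levels was not tested.

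Set against the mean of KO-NT 1 to 3, the library labelled KO-NT 4 was 473 times higher for Derl3, 6.55 for Herpud1, 5.42 for Sel1l, 3.84 for Syvn1 and 2.94 for Edem1. It was 2.47 and 2.05 times higher for Derl1 and Derl2, and 1.28 to 1.52 times for Os9, Edem2 and Edem3. On the same base the library labelled KO-GS 3 lay between 0.77 (Syvn1) and 1.29 (Edem3) for the 10 members. Edem3 was the exception in KO-GS 3: at 129 CPM it lay at 0.676 of the way from the WT-NT to the WT-GS mean, on a log2 scale, where KO-NT 4 lay at 0.651.

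Without these 2 libraries, 8 of the 10 members rose on starvation in SirT7-/- cells, none fell, and Edem2 and Os9 did not pass the test. Among all 15284 genes tested the percentage called was 39.7% in either direction, 20.9% higher and 18.8% lower. The log2 change was 8.72 for Derl3 (SE 0.851, edgeR adjusted p = 0.00267), 2.43 for Herpud1 (SE 0.222, edgeR adjusted p = 0.00236) and 2.31 for Sel1l (SE 0.234, edgeR adjusted p = 0.00287). Edem1 rose by 1.496, Syvn1 by 1.45, Derl1 by 1.002, Derl2 by 0.91 and Edem3 by 0.45, with edgeR adjusted p from 0.00356 to 0.0152. Os9 stood at 0.50 (SE 0.17, edgeR adjusted p = 0.0706) and Edem2 at 0.28 (SE 0.207, edgeR adjusted p = 0.324). In 9 members, all but Edem2, both remaining KO-GS libraries lay above the 3 KO-NT libraries, against 34% of all genes. Leaving out only KO-NT 4 gave 2182 called genes and 1 called member, Edem3 (edgeR adjusted p = 0.0249), and leaving out only KO-GS 3 gave 2 called genes and 0 members.

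The remaining starved libraries were graded and not alike. KO-GS 1 held more of every member than KO-GS 2, by 4.96 times for Derl3, 1.97 for Syvn1, 1.80 for Sel1l, 1.74 for Herpud1 and 1.04 for Edem3, the smallest ratio. In wild-type cells the ratio of WT-GS 1 to WT-GS 2 was 1.99 for Derl3, 0.98 for Edem3 and up to 1.33 for the others. Over the 9 members other than Derl3, KO-GS 1 lay at 1.20 and KO-GS 2 at 0.759 between the wild-type means, while on the other starvation genes the same libraries lay at 0.881 and 0.906. KO-NT 4 lay at 1.12 over these members, against 0.857 on the other starvation genes. A gap between the KO-GS libraries was also seen in genes that are no members: they stood at 197 and 371 CPM for Dnajb9 and at 350.4 and 613 CPM for Ddit3.

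**Figure D4:**
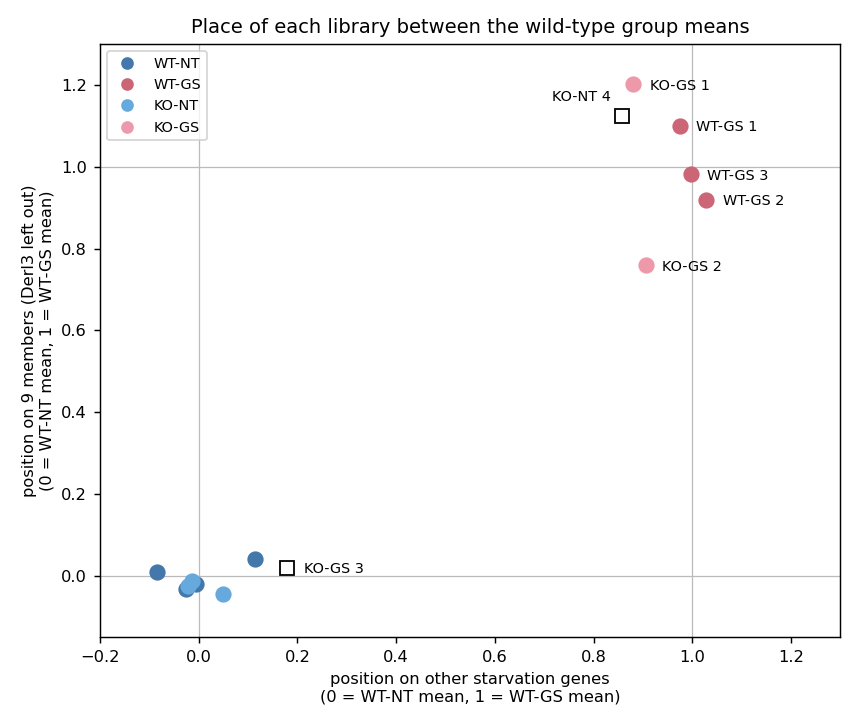
Place of each of the 14 libraries between the WT-NT mean (0) and the WT-GS mean (1), on 5120 other starvation genes (horizontal axis) and on the 9 members without Derl3 (vertical axis), with KO-NT 4 and KO-GS 3 as open squares. KO-NT 4 sits among the starved libraries at 1.12, and KO-GS 3 near the libraries of normal medium at 0.0194.

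The next comparison asked whether cells without SirT7 differ from wild-type cells in the same medium. In normal medium as labelled, none of the 10 members passed the test, and 1 of 14971 genes was called, Sirt7 itself (0.00668%). EdgeR had 564 genes at an unadjusted p under 0.05, 1 of them a member (Derl3). DESeq2 called 50 genes and 0 members, but it gave no p-value for Derl3, Herpud1 and Sel1l, so it could not call them. All 10 log2 changes were positive, from 0.11 for Edem2 to 6.74 for Derl3 (SE 2.29), and the libraries of the groups overlapped in all 10. Among all genes, 1.08% had every KO-NT library higher and 2.24% every one lower. Without the library labelled KO-NT 4, 5 of 15107 genes were called (0.0331%), again none of the members. Their log2 changes then ran from -0.14 for Edem1 to 0.21 for Syvn1, 3 positive and 7 negative. For Derl2 the 95% interval was -0.15 to 0.15 and for Herpud1 -0.27 to 0.09, while for Derl3, with its low counts, it was -1.04 to 0.79.

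In glucose-free medium as labelled, no member passed the test, and the 1 gene called of 14972 (0.00668%) was again Sirt7. The count at an unadjusted p under 0.05 was 490 genes and 0 members with edgeR, and DESeq2 called 13 genes and 0 members. All 10 log2 changes were negative, from -0.54 for Herpud1 to -0.06 for Os9, with overlapping libraries in all 10. Among all genes, 7.07% had every KO-GS library higher and 3.73% every one lower. Without the library labelled KO-GS 3, 4 of 15156 genes were called (0.0264%), none of them members, and 5 changes were positive and 5 negative. They ran from -0.12 for Edem3 to 0.49 for Derl3. The 95% intervals, from the 2 remaining KO-GS libraries, were -0.43 to 0.26 for Derl2, -0.72 to 0.55 for Herpud1, -0.67 to 0.67 for Sel1l and -1.19 to 2.18 for Derl3.

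The difference between the genotypes in their starvation response was tested as 1 term over all 4 groups. As labelled, 0 of 15666 genes and 0 members were called (0%). EdgeR had 950 genes and 1 member (Derl3) at an unadjusted p under 0.05, and DESeq2 called 5 genes and 0 members. All 10 differences were negative, meaning a smaller fitted rise in SirT7-/- cells, with a median of -0.71 and -6.83 for Derl3 (SE 2.97, edgeR adjusted p = 0.68). Without KO-NT 4 and KO-GS 3, again 0 genes of 15864 and 0 members were called, with 524 genes and 0 members at an unadjusted p under 0.05. Of the differences, 7 were then positive and 3 negative, from -0.19 for Syvn1 to 0.63 for Derl3. Their 95% intervals spanned -0.39 to 0.23 for Derl2, -0.53 to 0.53 for Herpud1, -0.57 to 0.66 for Sel1l, -0.82 to 0.43 for Syvn1 and -1.20 to 2.46 for Derl3. Differences within these bounds could not be told from 0 with this number of libraries, which does not show that the genotypes responded alike.

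The other genes of the pathway were described from 6 lists holding 60 genes of the table, all of them tested in wild-type starvation. Their counts are to be read beside the shares of all genes in the same comparison, 33.8% called, 16.8% higher and 17% lower. Among the other parts of the membrane complex, 4 of 6 rose and 0 fell, with a median of 0.52. Vimp, which tethers the ATPase to the complex, rose by 0.95 (SE 0.116) and the conjugating enzyme Ube2g2 by 0.76 (SE 0.0766). Herpud2, the relative of Herpud1, rose by 0.63 and Ube2j1, another conjugating enzyme, by 0.42.

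Lumenal recognition was the list with the most calls for its size, with 8 of 9 genes higher, 0 lower and a median of 0.93. Dnajb9, a co-chaperone of BiP, rose by 3.64 (SE 0.237), Hspa5, which encodes BiP, by 2.34 (SE 0.154) and the co-chaperone Dnajb11 by 1.81 (SE 0.0985). Sdf2l1, a partner of that complex, was counted among the 8 at 3.14. Hspa5 stood at 1362 ± 199 CPM (SD, n = 4) in WT-NT and at 6712 ± 642 CPM (SD, n = 3) in WT-GS. These chaperones also serve folding itself and not ERAD alone.

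The other membrane ligases and their enzymes were mixed, with 6 of 14 higher, 2 lower and a median of 0.18. Erlin1, a scaffold protein, rose by 0.78 (SE 0.0884), the ligase Rnf103 by 0.74 and the ligase Tmem129 by 0.60. The 2 that fell were Tmub1 at -0.98 and the ligase Rnf170 at -0.35, named here after their values were seen. Without any 1 of the WT-GS libraries this list had 4 or 5 calls in place of 8.

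Of the 8 genes of the extraction step, 2 rose and 0 fell, with a median of 0.23. The share called in either direction was below the 33.8% of all genes, and the share called higher was above their 16.8%. They were Ufd1l at 0.58 (SE 0.0794), which encodes a cofactor of the ATPase, and Ubxn8 at 0.43 (SE 0.0964), which holds the ATPase at the membrane. The other anchors stood at 0.19 for Ubxn4 and 0.20 for Faf2, neither called. Vcp, the ATPase itself, stood at 0.03 (SE 0.0774), and it too was singled out after its value was seen. The number called was 5 without WT-NT 4 and 1 without WT-GS 1.

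Of the 16 cytosolic factors that act after extraction, 1 rose and 5 fell, with a median of -0.14. The share called in either direction was close to the 33.8% of all genes. The share called lower was above their 17%, and the share called higher below their 16.8%. The deubiquitinase Usp13 fell by 0.98 on the log2 scale (SE 0.183). Bag6, a holdase for exposed hydrophobic segments, fell by 0.53 (SE 0.0976) and the ligase Ube4b fell by 0.25 (SE 0.0712). The single rise was the deubiquitinase Yod1, at 0.57 with an edgeR adjusted p of 0.0496, and Sgta was among the falls at -0.44, both named after their values were seen. DESeq2 called 10 of this list, and 3 were called, all lower, without WT-NT 1, WT-NT 3 or any 1 of the WT-GS libraries.

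Among 7 regulators of the unfolded protein response, 5 rose and 0 fell, with a median of 0.83. Ddit3, the transcription factor CHOP, rose by 2.49 (SE 0.159) and the sensor Atf6 by 1.55 (SE 0.116). The sensors Ern1 (IRE1) and Eif2ak3 (PERK) rose by 0.92 (SE 0.148) and 0.83 (SE 0.147). Xbp1, named after its value was seen, also passed the test, at 0.55, though counts per gene do not separate its spliced from its unspliced RNA.

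In SirT7-/- cells as labelled none of the 60 genes was called. Without the 2 libraries the calls were 4 higher and 0 lower of 6 in the membrane complex, 8 and 0 of 9 in recognition, and 7 and 3 of 14 in the other ligases. Extraction had 4 higher and 0 lower of 8, the cytosolic factors 2 higher and 8 lower of 16, and the regulators 5 higher and 0 lower of 7. Among all genes 39.7% were called in that fit, 20.9% higher and 18.8% lower, with the libraries left out for their place on starvation genes. Dnajb9 then stood at 3.75, Hspa5 at 1.98 and Ddit3 at 2.69. None of these genes was called for SirT7 loss in either medium, with or without the 2 libraries.

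**Figure D5:**
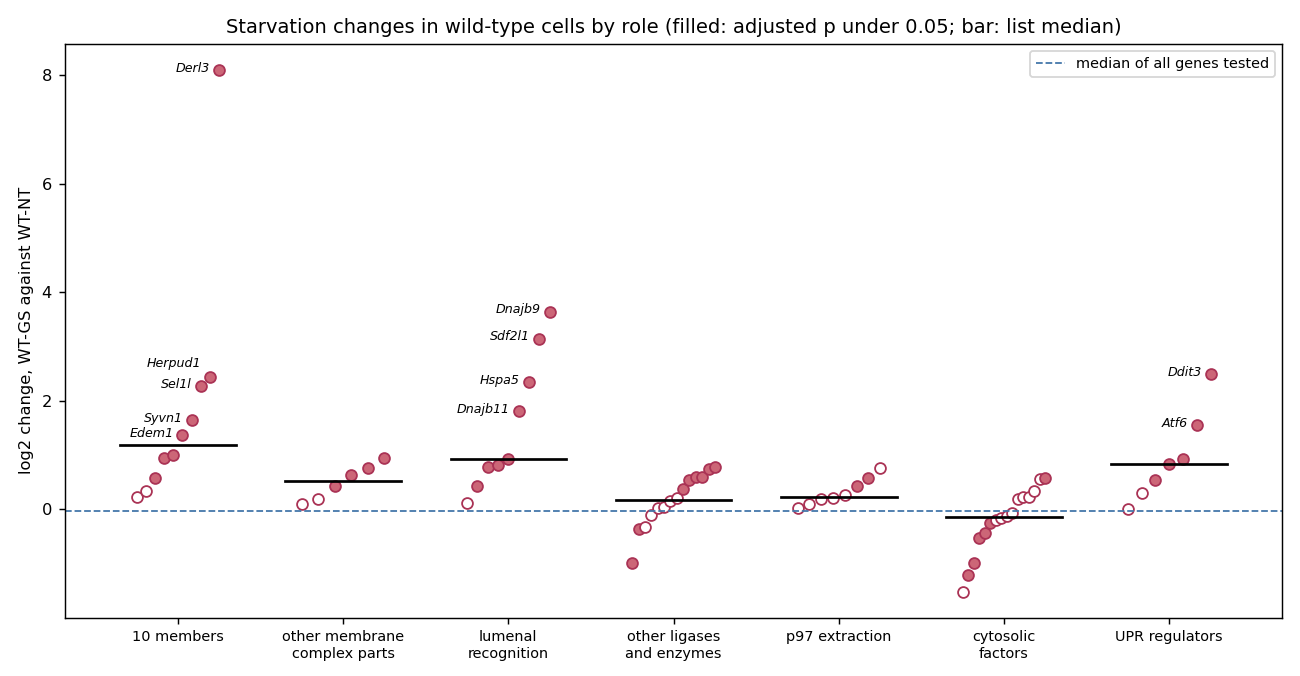
Log2 change on starvation in wild-type cells (vertical axis) of the 10 members and of the 6 pathway lists (horizontal axis), 1 point per gene, filled where the edgeR adjusted p was under 0.05, with a bar at each list's median and a dashed line at the median of all genes. Medians run from 1.18 for the members and 0.93 for lumenal recognition to -0.14 for the cytosolic factors.

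Outside these lists, the genes whose level followed the members most closely were found by Pearson's r over the 14 libraries, against the mean of the members' standardised log2 CPM, among 10684 genes with a mean of at least 5 CPM. They were Atg13 (r = 0.996), Ttc17 (0.993), Dnajc3 (0.992), Nucb2 (0.991) and Wars (0.991). Without KO-NT 4 and KO-GS 3, an alternative chosen after seeing the data, r for these 5 genes was 0.99 to 0.994 over 12 libraries. The libraries form a starved and a normal set, so any gene that separates these sets scores high, and r is given as a description with no test. Dnajc3, an ER co-chaperone, stood at 174 ± 19.3 CPM (SD, n = 4) in WT-NT and 919 ± 167 CPM (SD, n = 3) in WT-GS. Atg13, a subunit of the kinase complex that starts autophagy, stood at 35.9 ± 2.42 CPM (SD, n = 4) and 83.7 ± 6.11 CPM (SD, n = 3). Wars, the tryptophanyl-tRNA synthetase, stood at 120.5 ± 2.56 CPM (SD, n = 4) and 327 ± 36.2 CPM (SD, n = 3).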

How the data were processed

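Per the submitters' processing notes, the authors used FastQC 0.11.3, Trimmomatic 0.36, HISAT2 2.1.0, SAMtools, StringTie 1.3.3 and DESeq2 1.18.1 on the genome build mm9, and per the labels the TruSeq RNA v2 kit, which does not mark strand. The deposited table holds estimated counts per gene, as whole numbers, which were used unscaled; strand setting and annotation are not given in the sources used here. It includes 27 entries with a date for a symbol, at most 0.288% of a library's counts. Counts were tested with edgeR 4.0.16 (quasi-likelihood F-test, robust, TMM, filterByExpr with minimum count 10 and minimum total 15) in R 4.3.3, each comparison fitted on its own groups, with Benjamini-Hochberg adjustment over all genes tested. SE values were worked back from F. Places between the wild-type means and r used log2(CPM + 0.1). No 2 libraries of a group agreed within sampling noise. The fit was tested on simulated data. Alternatives were DESeq2 1.42.0, RLE factors, library size alone, no filter, all 14 libraries in 1 fit, a replicate block, and leaving out libraries. Named genes were the members, Sirt7, up to 4 genes per list with the smallest p in wild-type starvation, and the 5 nearest by r, beside genes said to be named later; some are not reported here. The members and lists were chosen with earlier results of these data known. No sequence of Derl1 was printed.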

Additional observations from a re-analysis of the deposited data

Results flagged for a closer look

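In 7 of the 10 members the library labelled KO-NT 4 stood far above the other 3 of its group, by a gap of 0.924 to 0.999 of the group's range. It held 380.5 CPM of Derl1, 102 of Derl2, 145 of Derl3, 467 of Herpud1, 1116 of Sel1l, 291 of Syvn1 and 357 CPM of Edem1. The 10 members and Sirt7 were each examined in WT-NT and KO-NT, which makes 22 sets of 4 values. Chance marks about 1 in 20 such sets, but these are not independent, since the members moved together and all 7 marks are of 1 library. On 5120 starvation genes outside ERAD the same library lay at 0.857 between the wild-type means of normal (0) and glucose-free medium (1). Whether its medium label or another difference goes with these levels was not tested. Groups of 3 libraries were not examined in this way, so the library labelled KO-GS 3 could not be marked.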

How the results depend on the processing

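In wild-type starvation the 10 members kept their direction under all alternatives, with 7 to 9 called when 1 library was left out, and the count of all called genes ran from 2841 (without WT-GS 1) to 6668. In SirT7-/- starvation, leaving out KO-NT 4 and KO-GS 3 gave 8 members and 6065 genes, DESeq2 626 genes, and leaving out 1 library 0 to 1 members and 0 to 2182 genes. For SirT7 loss in normal medium the genes called were 50 with DESeq2, 5 without the 2 libraries, 0 with the replicate block and 0 to 5 with 1 library left out. In glucose-free medium they were 13, 4, 0 and 0 to 4. For the difference between genotypes DESeq2 called 5 genes, and leaving out 1 library gave 0 to 1. These shifts' causes were not tested.

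Without KO-NT 4 and KO-GS 3, signs turned for SirT7 loss in normal medium (Derl1 -0.077, Derl3 -0.12, Herpud1 -0.087, Sel1l -0.046, Edem1 -0.14, Edem2 -0.043, Os9 -0.043), in glucose-free medium (Derl3 0.49, Sel1l 0.0022, Syvn1 0.017, Edem2 0.014, Os9 0.12) and for the difference (Derl1 0.051, Derl3 0.63, Herpud1 0.0018, Sel1l 0.044, Edem1 0.12, Edem2 0.056, Os9 0.16). With 1 library left out, starvation in SirT7-/- cells ranged from -0.022 to 0.78 for Derl1, -0.67 to 8.14 for Derl3, -0.36 to 1.05 for Syvn1, -0.21 to 0.19 for Edem2 and -0.063 to 0.33 for Os9. SirT7 loss in normal medium ranged from -0.077 to 0.50 for Derl1, -0.12 to 7.15 for Derl3, -0.087 to 1.42 for Herpud1, -0.046 to 1.25 for Sel1l, -0.14 to 0.58 for Edem1, -0.043 to 0.18 for Edem2, -0.026 to 0.24 for Edem3 and -0.043 to 0.25 for Os9. In glucose-free medium it ranged from -2.03 to 0.49 for Derl3, -1.04 to 0.0022 for Sel1l, -1.03 to 0.017 for Syvn1, -0.34 to 0.031 for Edem2 and -0.28 to 0.12 for Os9, and the difference for Derl3 from -8.78 to 0.028.

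Replicate numbers were not used to pair the libraries in the main fits. Correlations of same-numbered deviations ran from -0.136 to 0.5, and not every pair exceeded 0.1. Some lay above the best other number, as 0.5 against -0.295 for number 2 between the genotypes in glucose-free medium. Others lay below it, as -0.121 against 0.509 for number 1 in SirT7-/- starvation. These values do not settle whether same-numbered libraries belong together. With the replicate block, 8 members and 5862 genes were called in wild-type starvation, against 8 and 5161 without it. In SirT7-/- starvation 0 members and 0 genes were called with the block. At an unadjusted edgeR p under 0.05 it had 7 members and 4339 genes there, against 1 and 2253 without the block. The share of wild-type calls that were higher was 49.7% with TMM and 43.2% with library size alone. Depth limits Derl3 in normal medium most, with 17 to 50 counts in WT-NT.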
